A study of Mus musculus with 21 samples.

Results

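Remote ischemic preconditioning (RIPC) is a short, repeated interruption of the blood flow to a limb that is given before surgery to protect a distant organ. The comparison described here asks what RIPC did to the transcripts of renal tubular epithelial cells (TECs) in kidneys that were operated on but never made ischemic. It rests on 6 of the 21 RNA-Seq libraries of the series: 3 sham control and 3 sham RIPC TEC libraries, chosen by their labels alone. The other libraries come from neutrophils and from mice with renal ischemia-reperfusion injury (IRI), and the 5 IRI TEC libraries entered the statistical fit to help estimate the spread between libraries and served in the test of whether a difference depended on surgery.

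All mice were male C57BL/6 animals, 8 to 12 weeks old, with no transgene. In the RIPC group a cuff around the hind limb was inflated 3 times for 5 minutes each, while control mice had the cuff without limb ischemia. Both groups then had sham surgery, in which the renal pedicles were exposed and not clamped. Kidneys were taken 24 hours later, digested with collagenase, and TECs were pulled out with magnetic beads against prominin-1, a surface protein of proximal tubule cells. The 3 libraries of a group are described as biological replicates.

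The proximal tubule reclaims most of the filtered salt, glucose, phosphate and amino acids, and it pays for this work with mitochondrial oxidation of fatty acids. It also makes glucose and conjugates and secretes organic anions. In the model that motivated the study, the nuclear protein HMGB1 released by the limb acts through Toll-like receptor 4 (TLR4) and NF-κB on tubular cells, which then enter a transient arrest in the G1 phase of the cell cycle. Sema5b, a transmembrane semaphorin first known from axon guidance, is the tubular gene that the study followed, and Plxna1 encodes a plexin, one of the family of semaphorin receptors.

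The libraries carried the markers of proximal tubule. Slc34a1, the sodium-phosphate cotransporter of the proximal brush border, ranged from 2435 to 5541 CPM (read counts scaled to a common library size, normalised for composition by the TMM method), and Prom1, the gene of the bead antigen, from 19.3 to 124 CPM. Summed over 30 proximal tubule markers, the control libraries held 63060, 75220 and 53330 CPM and the RIPC libraries 48770, 60470 and 38540 CPM, so the groups overlapped. Markers of other cells were low by comparison and are given further on.

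The libraries were deep but uneven. They held 25395769 to 51499175 estimated reads. Control 2 stood apart before any comparison was made: 11842 genes had at least 10 reads in it, against 16537 to 19614 in the other 5 libraries, although it was the deepest library. Gene models made of satellite-like repeat sequence took 4.09% to 10.3% of the reads elsewhere and 0.000579% in control 2. Its mean correlation with the other control libraries was 0.396, whereas each RIPC library correlated with the other RIPC libraries at 0.853 to 0.877. All 3 controls correlated better with the RIPC libraries than with the other controls. These means were 0.727 against 0.527 for control 1, 0.434 against 0.396 for control 2 and 0.880 against 0.584 for control 3. Control 1 differed in another way, with 332 CPM of the cell cycle inhibitor Cdkn1a against 14.2 to 57.3 CPM elsewhere, and a summed level of tubular injury genes of 11230 CPM against 1399 to 2961 CPM.

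Across all genes, RIPC gave no difference that passed the test after sham surgery. Of 25917 autosomal genes tested with edgeR's quasi-likelihood F test, 0 had a Benjamini-Hochberg adjusted p under 0.05, and the lowest adjusted p was 0.708. An unadjusted p under 0.05 was reached by 1175 genes (4.53%), 865 (3.34%) higher and 310 (1.20%) lower with RIPC. The common biological coefficient of variation was 1.54, that is, a typical gene had a standard deviation between libraries of a group that exceeded its mean. Other tools called more on the same counts: DESeq2's Wald test called 439 genes (1.69%). DESeq2 with apeglm shrinkage was read at an s value under 0.01. An s value is the estimated share of wrong signs among all genes with that value or a lower one. This threshold called 62 genes (0.239%) when fitted to the 4 TEC groups and 183 genes (0.706%) when fitted to the sham libraries alone. The edgeR and Wald p-values measure the spread between these 6 libraries and the IRI libraries fitted with them. The s values of the 4-group fit rest on the same libraries, and those of the sham fit on these 6 alone.

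Statements on single genes are therefore limited to those whose 3 RIPC libraries all lay above, or all below, the 3 control libraries. Such genes numbered 2035 of 25917 (7.85%), of which 1383 (5.34%) were higher and 652 (2.52%) lower with RIPC. Without control 2 the excess of higher genes was gone, with 1959 higher and 2007 lower. Among the 3108 well-expressed genes, defined by a mean of at least 50 CPM over the 6 libraries, 273 (8.78%) did not overlap, and there the balance was the other way: 47 (1.51%) were higher and 226 (7.27%) lower. Without control 2, 175 (5.63%) of the well-expressed genes were higher and 342 (11.0%) lower in every remaining RIPC library. Leaving out control 3 instead gave 147 higher and 760 lower, the largest count of lower genes among the 6 libraries left out in turn.

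Sema5b was higher in every RIPC library than in every control library, but the distance was uneven. The gene lies on the plus strand of chromosome 16, from 35541145 to 35664732 (GRCm38). Its control levels were 0.0867, 0.0277 and 0.547 CPM, and its RIPC levels were 12.1, 30.0 and 0.789 CPM. RIPC 3 thus lay just above control 3, and the separation rested on RIPC 1 and RIPC 2. The fitted log2 fold change was 5.99 (SE 2.34, 95% interval 0.98 to 11.0). In edgeR's test the unadjusted p was 0.0223, which put Sema5b at rank 291 of the tested genes, and the adjusted p was 0.708. DESeq2 with apeglm gave it an s value of 0.00247 in the 4-group fit and 0.000343 in the sham libraries alone, and the Wald test an adjusted p of 0.0189. Leaving out any 1 library kept the log2 fold change between 4.84 and 7.87, with adjusted p from 0.651 to 0.996 in edgeR.

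The reads behind Sema5b were few in 4 of the 6 libraries and came from different transcripts. Estimated reads summed to 2.01, 1.00 and 14.0 in the controls, all assigned to the protein-coding transcript Sema5b-201. RIPC 1 held 305 reads, of which 248 were assigned to a second coding transcript, Sema5b-202, and 47.9 to the retained-intron transcript Sema5b-204. RIPC 2 held 752 reads, with 496 on Sema5b-201 and 138 on Sema5b-202. In RIPC 3, all 17.0 reads were assigned to the retained-intron transcript Sema5b-205 and 0 to a coding one. Reads on protein-coding Sema5b transcripts therefore separated RIPC 1 and RIPC 2 from the controls, and RIPC 3 did not exceed them. The test of whether the RIPC difference of Sema5b depended on surgery gave an interaction of -2.78 on the log2 scale with an adjusted p of 1.00.

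The partner gene Plxna1, in contrast, overlapped completely: the controls held 0.0867, 1.02 and 31.1 CPM and the RIPC libraries 1.66, 1.16 and 5.38 CPM. Among the 27 tested semaphorins, plexins and neuropilins, 2 were higher and 1 lower without overlap (11.1% of the list, beside 7.85% of all tested genes), and 14 had a positive log2 fold change. The median was 0.00, and 0.98 without control 3. Beside Sema5b, the other separated members were Sema5a, the closest relative of Sema5b, with 4.21, 0 and 7.50 CPM in controls and 14.5, 29.2 and 9.10 CPM with RIPC, and Plxnb2, a receptor of class 4 semaphorins, with 64.8, 44.1 and 57.8 CPM in controls and 21.9, 35.1 and 18.6 CPM with RIPC. Neither passed the test.

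**Figure D1:**
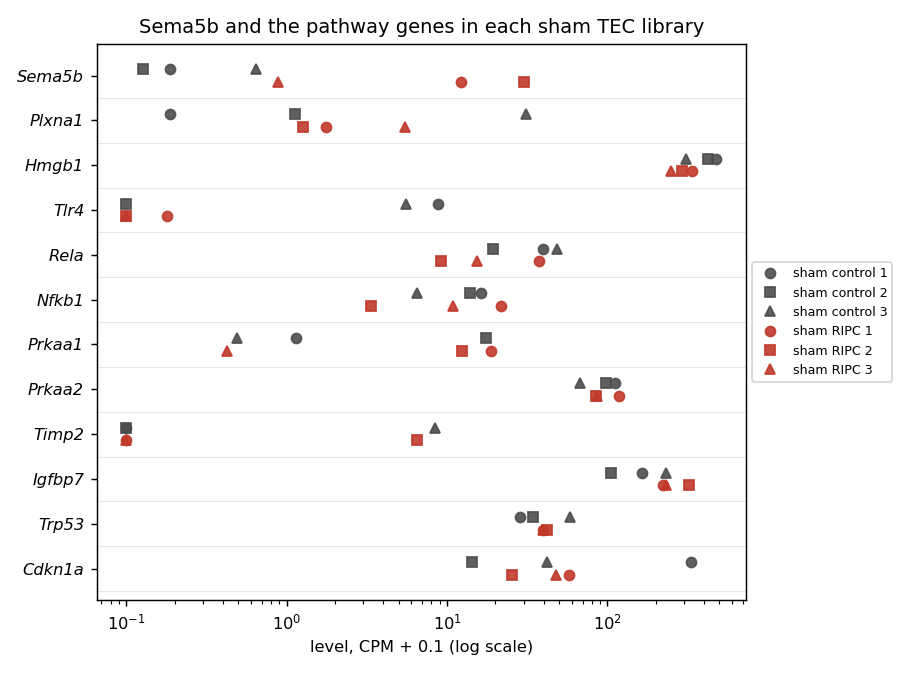
Level of Sema5b and of 11 genes of the pathway the study followed, in CPM plus 0.1 on a log axis; each point is 1 library, grey for sham control and red for sham RIPC, with the marker shape giving the replicate number. Of the 12 genes, only Sema5b has all 3 RIPC points above all 3 control points, with RIPC 3 (0.789 CPM) close to control 3 (0.547 CPM), and no gene has all RIPC points below.

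Hmgb1, Tlr4, Rela and Nfkb1, which stand upstream of Sema5b in the proposed pathway, each overlapped between the groups. Hmgb1, a chromatin protein that acts as a danger signal once outside the cell, was well expressed at 478, 426 and 311 CPM in controls and 337, 290 and 251 CPM with RIPC, a log2 fold change of -0.47 (95% interval -1.30 to 0.36). Tlr4 held 8.72, 0 and 5.47 CPM in controls and 0.0791, 0 and 0 CPM with RIPC, so that 1 control and 2 RIPC libraries had no read of it. The NF-κB subunits Rela (39.8, 19.1 and 48.7 against 37.4, 9.14 and 15.3 CPM) and Nfkb1 (16.2, 13.7 and 6.37 against 21.7, 3.27 and 10.8 CPM) overlapped.

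No list held a member that passed edgeR's adjusted test, and apeglm called 4 list members in the 4-group fit and 6 in the sham libraries alone. Over all tested genes these fits called 0.239% and 0.706%. The share of list members was not worked out, so no excess is read from these counts. Of 18 tested genes of HMGB1 and pattern receptor signalling, 2 (11.1%) were separated, both higher. Of all tested genes, 7.85% were separated in either direction and 5.34% were higher. Myd88, the adaptor of most Toll-like receptors, held 20.5, 9.10 and 0 CPM in controls and 36.4, 26.8 and 41.5 CPM with RIPC. Lbp, which carries lipopolysaccharide to its receptor, was without reads in the controls and held 17.8, 0.0798 and 0.464 CPM with RIPC, so 1 library supplied nearly all of it. Its RIPC 2 value lay below the level of 3 reads in that library (0.120 CPM). Among 16 NF-κB subunits and regulators, 2 (12.5%) were separated, both lower. Of all tested genes, 7.85% were separated in either direction and 2.52% were lower, and at a mean of at least 10 CPM 5.68% were lower. The 2 were the inhibitor Nfkbib, with 53.2, 57.9 and 35.3 CPM in controls and 4.71, 21.2 and 22.7 CPM with RIPC, and Bcl3, with 7.46, 4.21 and 7.93 against 0.237, 0 and 1.67 CPM. Nfkbia, the inhibitor that NF-κB itself induces, overlapped at 120, 43.0 and 96.0 against 48.1, 54.8 and 70.7 CPM.

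The sum over NF-κB target genes was lower in every RIPC library, at 1645, 1545 and 1313 CPM in controls and 1258, 1265 and 1023 CPM with RIPC, a ratio of 0.787. With 1 library left out, the ratio lay between 0.741 and 0.840. Sums of other lists had similar ratios, though their libraries overlapped: fatty acid oxidation 0.771, antioxidants and metallothioneins 0.783, and oxidative phosphorylation subunits 0.812. Among the pathway lists, ratios above 1 were those of cyclins and proliferation (1.07), immediate early genes (1.02) and clock genes (1.095). Of all well-expressed genes, 66.5% had a negative log2 fold change. The NF-κB target sum was made up largely of Sod2, the mitochondrial superoxide dismutase, at 564, 886 and 620 against 703, 678 and 484 CPM, and of complement factor Cfb, both of which overlapped. The single targets that separated were Cxcl1, a chemokine for neutrophils, at 55.1, 6.23 and 25.9 against 5.89, 0 and 4.32 CPM, and Ptgs2, the inducible cyclooxygenase, which had no read in the controls and 1.70, 0.0798 and 3.90 CPM with RIPC. The RIPC 2 value of Ptgs2 lay below the level of 3 reads in that library (0.120 CPM), so its separation there rested on fewer than 3 reads. Of the 22 tested targets, 2 (9.09%, beside 7.85% of all tested genes) separated, 4 had a positive log2 fold change, and the median was -0.73. It was -1.06 without control 2 and -0.14 with limma voom.

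Genes of G1 arrest did not separate the groups, with 1 exception. These libraries date from 24 hours, a time at which the study no longer detected the RIPC-induced arrest of TECs. Cdkn1a, which encodes the cyclin-dependent kinase inhibitor p21, was 332, 14.2 and 41.8 CPM in controls and 57.3, 25.5 and 47.8 CPM with RIPC. Its log2 fold change of -1.57 (95% interval -3.40 to 0.25) rested on control 1 and turned to 0.60 without that library. Trp53 was 28.3, 34.2 and 58.6 against 39.6, 41.8 and 39.4 CPM. Of the urinary arrest markers, Igfbp7 was 164, 104 and 231 CPM in controls and 221, 322 and 231 CPM with RIPC, a log2 fold change of 0.63 (95% interval -0.54 to 1.80), and control 3 reached the level of RIPC 3. Timp2 was found in 1 control library, at 8.29 CPM, and in 1 RIPC library, at 6.42 CPM.

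The exception among 20 tested members was Bbc3, a pro-apoptotic target of p53, which had no read in the controls and 2.17, 7.18 and 7.24 CPM with RIPC. That was 5% of the list, not above the 7.85% of all tested genes that separated in either direction or the 5.34% that were higher. Of 27 tested cyclins and proliferation genes, 1 (3.70%) separated, which is also below those shares. It was Ccnd1, cyclin D1, which drives G1 progression: 5.90, 63.5 and 59.6 CPM in controls and 72.9, 113 and 111 CPM with RIPC, a log2 fold change of 1.20 (95% interval -1.08 to 3.48). The median over that list was 0.09, beside 0.21 over all tested genes, and ranged from -0.14 without RIPC 1 to 0.58 without control 1.

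AMP-activated kinase, the energy sensor, has its catalytic subunits encoded by Prkaa1 and Prkaa2. Prkaa2 was well expressed and overlapped, at 112, 97.6 and 67.2 CPM in controls and 118, 84.8 and 85.8 CPM with RIPC, a log2 fold change of 0.06 (95% interval -1.15 to 1.27). Prkaa1 was 1.04, 17.3 and 0.391 against 18.8, 12.3 and 0.325 CPM. Of 16 tested subunits and partners, 2 (12.5%) separated, both higher, beside 5.34% of all tested genes that were higher and 7.85% in either direction: Strada, the pseudokinase that activates the upstream kinase LKB1, at 0.607, 0 and 0.117 against 23.1, 17.8 and 19.9 CPM, and Rptor, the scaffold of mTOR complex 1, at 0.694, 4.54 and 0.977 against 8.90, 8.54 and 32.6 CPM. Strada had an s value of 1.50e-06 in the sham libraries alone and of 0.393 in the 4-group fit.

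At a mean of at least 10 CPM, 818 of 8685 genes (9.42%) did not overlap, 325 (3.74%) of them higher and 493 (5.68%) lower. The 10 higher genes with the smallest p were each below 12 CPM in every control library. The lower ones included several that were high in a single control library.

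Ugt1a1, the glucuronosyltransferase that conjugates bilirubin, was the first of the higher genes. It had no read in any control library and 30.2, 47.4 and 63.6 CPM with RIPC, which is at least 427-fold higher when each control library is set to a floor of 3 reads. The gene spans chromosome 1 from 88211959 to 88218997 on the plus strand and shares its last exons with the other Ugt1a genes, so the split of reads between them is uncertain. Summed over the 6 tested Ugt1a genes, the controls held 646, 563 and 379 CPM and the RIPC libraries 338, 473 and 228 CPM, which overlap and do not follow Ugt1a1.

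Abl2, a non-receptor tyrosine kinase of the cytoskeleton, was at 0.304, 0.138 and 1.29 CPM in controls and at 25.3, 22.7 and 18.6 CPM with RIPC. The RIPC libraries lay close together. Its log2 fold change was 5.26 (SE 1.37), and its s values were 1.87e-07 and 1.26e-07 in the 2 apeglm fits. Ccdc137 was at 0.737, 0.111 and 0.977 against 13.6, 27.4 and 22.3 CPM, with s values of 1.56e-09 and 1.01e-07. Prokr2, a prokineticin receptor, was at 0.130, 0 and 0.547 against 37.7, 8.98 and 13.6 CPM.

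Trip11, a golgin that tethers vesicles, was at 1.30, 4.04 and 2.70 against 29.5, 39.4 and 16.4 CPM. Exoc4, a subunit of the exocyst that docks secretory vesicles, was at 3.60, 7.83 and 7.70 against 41.8, 28.7 and 55.7 CPM. The kinase gene Mast4 was at 0.520, 6.06 and 9.62 against 48.2, 66.0 and 25.2 CPM. Bod1l, which protects stalled replication forks, was at 2.47, 5.59 and 2.81 against 40.9, 36.5 and 21.9 CPM, and Nln, the peptidase neurolysin, at 11.7, 2.35 and 5.16 against 40.9, 18.9 and 34.1 CPM. The remaining gene, H2-Q6, a non-classical MHC class I gene with near-identical neighbours, was at 0.173, 0.111 and 0.860 against 64.7, 2.95 and 22.0 CPM, while the sum over 7 tested H2-Q genes overlapped at 60.2, 5.01 and 47.1 against 109, 42.5 and 50.2 CPM.

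Acly was the one of the 10 lower genes that both apeglm fits called. It encodes ATP citrate lyase, which makes cytosolic acetyl-CoA for lipid synthesis, and spans chromosome 11 from 100476353 to 100528000 on the minus strand. The controls held 335, 215 and 100 CPM and the RIPC libraries 31.4, 67.9 and 36.0 CPM. Every control library was above every RIPC library. The log2 fold change was -2.27 (SE 0.57, 95% interval -3.49 to -1.04), the unadjusted p 0.00134 and the adjusted p 0.708 in edgeR, and the s values 0.000165 and 0.00210 under apeglm. Other lipogenic genes, looked up after Acly had been seen, did not separate: fatty acid synthase Fasn was 42.9, 28.5 and 18.8 against 28.6, 3.75 and 4.46 CPM, the carboxylase Acaca 5.08, 14.3 and 3.83 against 14.8, 0.958 and 9.38 CPM, and malic enzyme Me1 278, 283 and 208 against 153, 272 and 117 CPM.

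Cggbp1, which binds CGG repeats, was likewise lower without a single outlying library, at 31.8, 58.7 and 57.7 against 13.9, 6.30 and 17.3 CPM (log2 fold change -1.98, SE 0.66, s values 0.00143 and 0.138). Adar, an RNA-editing deaminase, was at 3.56, 19.0 and 47.3 against 0, 0 and 0.418 CPM. The other 7 were led by 1 control library each. Hba-a1, Hba-a2 and Hbb-bs encode the globins of red cells and were highest in control 2, at 286, 252 and 208 CPM, against 0 to 4.23 CPM with RIPC. Mt2, a metallothionein, was at 260, 3.62 and 3.60 against 2.17, 1.24 and 2.79 CPM, and the glutathione transferase-like Gm3776, Tacc1 and Ampd3 were likewise highest in control 1, at 68.9, 86.6 and 128 CPM. Gm3776 has close copies, and its sum with Gsta1 and Gsta2 overlapped, at 2438, 1296 and 629 against 976, 1238 and 987 CPM.

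**Figure D2:**
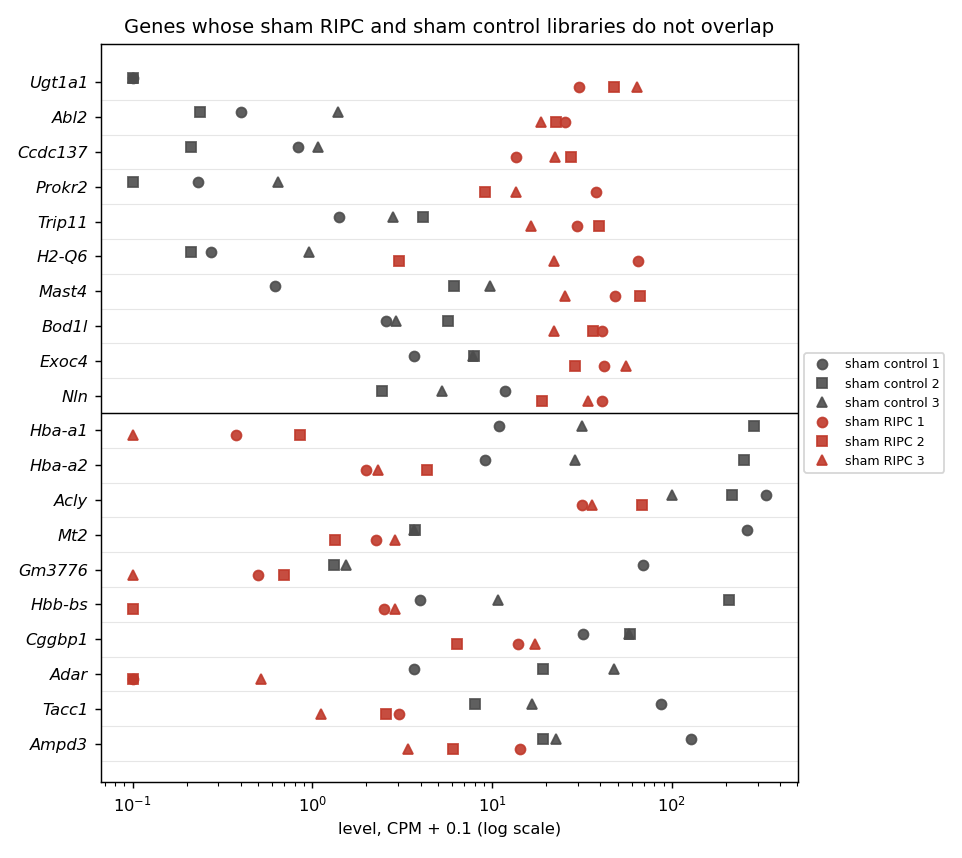
The 10 higher (above the line) and 10 lower genes with the smallest p among those with a mean of at least 10 CPM and no overlap between groups, in CPM plus 0.1 on a log axis; each point is 1 library. The higher genes sit below 12 CPM in every control library, and Acly and Cggbp1 are the lower genes whose control points lie closest together, whereas Mt2 and the globins are each led by 1 control library.

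Among well-expressed genes that separated, the 5 that follow were picked after their values were seen. Ran, the GTPase of nuclear transport, was at 242, 303 and 202 CPM in controls and 105, 146 and 123 CPM with RIPC (95% interval of the log2 fold change -1.88 to -0.13). Pnpla8, a mitochondrial phospholipase, was at 174, 164 and 132 against 90.5, 53.4 and 49.7 CPM. Higher with RIPC were Fis1, a mitochondrial fission factor, at 133, 160 and 145 against 193, 188 and 197 CPM, and Fabp3, a fatty acid carrier, at 153, 163 and 163 against 190, 223 and 183 CPM. Vamp3, a vesicle fusion protein, was at 28.2, 50.7 and 25.1 against 75.2, 77.8 and 89.1 CPM (log2 fold change 1.22, 95% interval 0.00 to 2.44).

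Of 30 proximal tubule markers, 5 were lower without overlap and 0 higher, which is 16.7% of the list beside 7.27% of well-expressed genes. They were the cytochrome Cyp4b1 (2609, 3914 and 2082 against 1913, 1623 and 1078 CPM), the fatty acid transporter and ligase Slc27a2 (2445, 2999 and 1429 against 1064, 1376 and 887 CPM), the organic anion transporter Slc22a6 (603, 1035 and 529 against 329, 341 and 380 CPM), the protease Napsa (276, 689 and 259 against 239, 222 and 130 CPM) and the S3 segment transporter Slc7a13 (72.7, 236 and 78.3 against 50.9, 14.3 and 31.1 CPM). The abundant members Slc34a1, Ass1, Gatm and Fbp1 overlapped. The median log2 fold change of the list was -0.33, beside -0.19 over all well-expressed genes, of which 66.5% were negative. Without control 2 the list's median was -0.18.

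Cytoplasmic ribosomal proteins leaned lower as a list. Of 75 tested, 14 were lower without overlap and 0 higher, 72 had a negative log2 fold change, and the median was -0.66, against -0.19 over all well-expressed genes. Of the 64 that were well expressed, 9 (14.1%) were lower without overlap, beside 7.27% of all well-expressed genes. Rps28 was at 73.1, 83.1 and 48.9 CPM in controls and 22.2, 21.0 and 28.5 CPM with RIPC (log2 fold change -1.52, SE 0.60), and was the one member called under apeglm, with s values of 0.00273 and 0.00994. Rpl41 was at 393, 465 and 207 against 174, 169 and 178 CPM. Abundant members differed less, with Rplp0 at 1220, 817 and 702 against 793, 877 and 578 CPM and Rpl4 at 503, 633 and 419 against 509, 637 and 445 CPM. The summed list was 16820, 16710 and 9514 CPM in controls and 10560, 10820 and 9748 CPM with RIPC, so control 3 lay below all 3 RIPC libraries. The list's median was -0.47 without control 2 and -0.89 without control 3.

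Nuclear-encoded subunits of oxidative phosphorylation also leaned lower. Of 72 tested, all well expressed, 13 (18.1%) were lower without overlap and 0 higher, 68 were negative, and the median was -0.38. Ndufa3, a subunit of complex I, was at 153, 211 and 93.7 CPM in controls and 65.9, 59.8 and 61.9 CPM with RIPC, Cox6a1 of complex IV at 1012, 990 and 686 against 626, 518 and 531 CPM, and Atp5j of the ATP synthase at 652, 971 and 452 against 362, 407 and 413 CPM. Among the most abundant subunits, Atp5b overlapped at 4818, 5034 and 4295 against 4069, 4802 and 3538 CPM, and Uqcrc1 of complex III at 1092, 1429 and 1118 against 1139, 1424 and 1074 CPM. In 7 of the 72 the 95% interval lay within 2-fold either way. Without control 2 the median was -0.16.

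These genes have short transcripts, and length moved with the difference. The median effective length was 332 bases for the well-expressed ribosomal proteins and 355 bases for the oxidative phosphorylation subunits, against 1438 bases for all well-expressed genes. Well-expressed genes under 500 bases had a median log2 fold change of -0.38 (332 genes), and those of 4000 bases or more a median of 0.34 (189 genes), while the 3 bins between them lay at -0.19. With both lists taken out, the 231 other genes under 500 bases had a median of -0.32, and 8.66% of them were lower without overlap. Seen by library, the short genes were above the 6-library mean in control 1 (0.35) and control 2 (0.50) and below it in control 3 (-0.23) and all RIPC libraries (-0.06 to -0.23), on the log2(CPM + 0.5) scale. The longest genes were low in control 2 alone (-0.67) and between 0.42 and 0.57 in the other 5 libraries. The part of transcript length in the ribosomal and respiratory shifts was not tested.

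**Figure D3:**
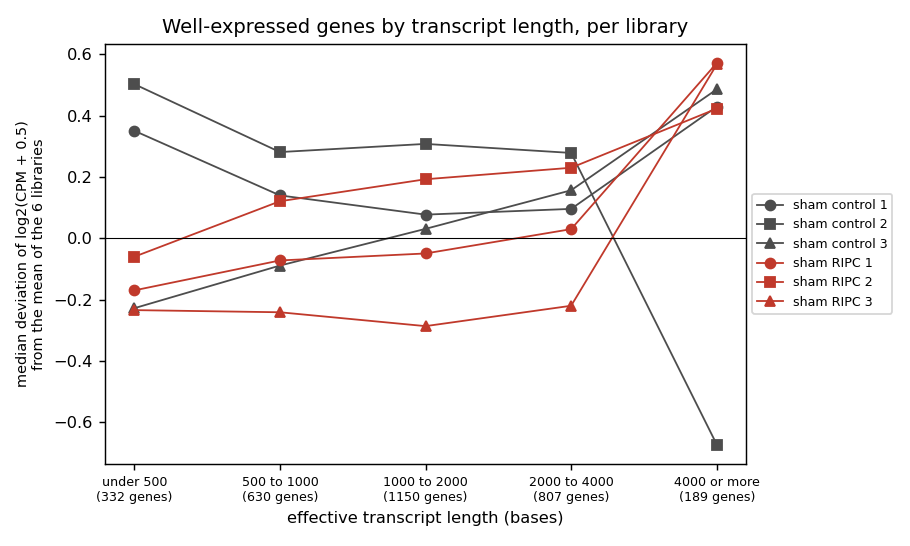
Median deviation of well-expressed genes from the mean of the 6 libraries, in log2(CPM + 0.5), by bin of effective transcript length in bases; each line is 1 library, grey for sham control and red for sham RIPC. Control 1 and control 2 are high for genes under 500 bases (0.35 and 0.50), control 3 lies with the RIPC libraries there (-0.23), and control 2 drops to -0.67 for genes of 4000 bases or more.

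Other metabolic and stress lists held 1 to 3 separated genes each. That was 4% to 12.5% of a list, beside 7.85% of all tested genes. Fatty acid oxidation had 2 of 28 members lower and 0 higher, with a median of -0.26 (-0.46 without control 3 and -0.15 without RIPC 3): Hadhb and Hadha, the subunits of the trifunctional protein, were at 452, 470 and 456 against 409, 384 and 368 CPM and at 248, 212 and 199 against 130, 192 and 124 CPM. Of 19 genes of gluconeogenesis and fructose metabolism 1 separated, Pgm1, at 155, 167 and 121 against 90.2, 113 and 67.8 CPM. Pck1, which controls entry into gluconeogenesis, overlapped at 4991, 889 and 3060 against 1261, 1849 and 3188 CPM.

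Antioxidant genes and metallothioneins leaned lower, with 1 of 26 positive and a median of -0.49, which was -0.77 without control 3. Besides Mt2, the peroxiredoxin Prdx6 separated, at 562, 488 and 315 against 238, 313 and 258 CPM. Gpx3, the secreted glutathione peroxidase and by TPM (a level per length) the most abundant gene after the satellite-like models, overlapped at 66630, 57610 and 73370 against 34580, 74900 and 50720 CPM. Of 25 tested hypoxia-induced and glycolytic genes 1 separated, Ankrd37, a target of hypoxia-inducible factor, at 0, 2.41 and 0.0782 against 17.6, 8.30 and 17.6 CPM, and the median was -0.32, or -0.12 without RIPC 3. Gapdh overlapped.

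Heat shock proteins had 2 of 19 members higher (10.5%, beside 5.34% of all tested genes that were higher without overlap and 7.85% in either direction). They were Cryab, a small chaperone, at 31.7, 34.9 and 23.9 against 53.6, 66.3 and 49.9 CPM, and Hsf1, the factor that drives heat shock genes, at 16.3, 20.1 and 53.4 against 62.6, 61.9 and 53.6 CPM, the last value barely above control 3. The inducible early genes Fos, Jun and Dusp1 overlapped, and of 20 tested members only Klf2 separated, at 2.34, 0.166 and 0 against 4.11, 7.34 and 3.76 CPM. Interferon-stimulated genes had 2 higher and 1 lower of 24 (12.5%, beside 7.85% of all tested genes). Bst2, an antiviral tether, had no read in controls and 13.0, 7.14 and 8.91 CPM with RIPC (s values 0.000129 and 5.02e-05), Usp18 had none and 2.53, 0.239 and 0.0928 CPM, and Irf1 was at 81.0, 18.7 and 32.4 against 10.0, 14.4 and 2.51 CPM. The RIPC 3 value of Usp18 lay below the level of 3 reads in that library (0.139 CPM). B2m overlapped at 216, 218 and 228 against 203, 237 and 248 CPM. Of 19 clock genes, Bhlhe41 was higher and Nfil3 lower without overlap (10.5% of the list), and the core repressor Nr1d1 overlapped at 174, 267 and 231 against 247, 198 and 214 CPM.

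Of 16 tested tubular injury genes, 2 low ones separated, both higher (12.5%, beside 5.34% of all tested genes that were higher without overlap and 7.85% in either direction). Spp1, osteopontin, was at 9881, 1102 and 2085 CPM in controls and 2110, 2452 and 1461 CPM with RIPC, the first value standing alone, and Krt8 was at 670, 240 and 348 against 302, 365 and 361 CPM. Without control 1, the summed list was 1.28 times the control mean with RIPC, and with it 0.501 times. Vim, an intermediate filament of injured tubules and of mesenchymal cells, had no read in the controls and 5.93, 0.200 and 5.85 CPM with RIPC, and Tgfb1 was at 0.651, 0.0830 and 0 against 8.90, 1.64 and 5.62 CPM.

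**Figure D4:**
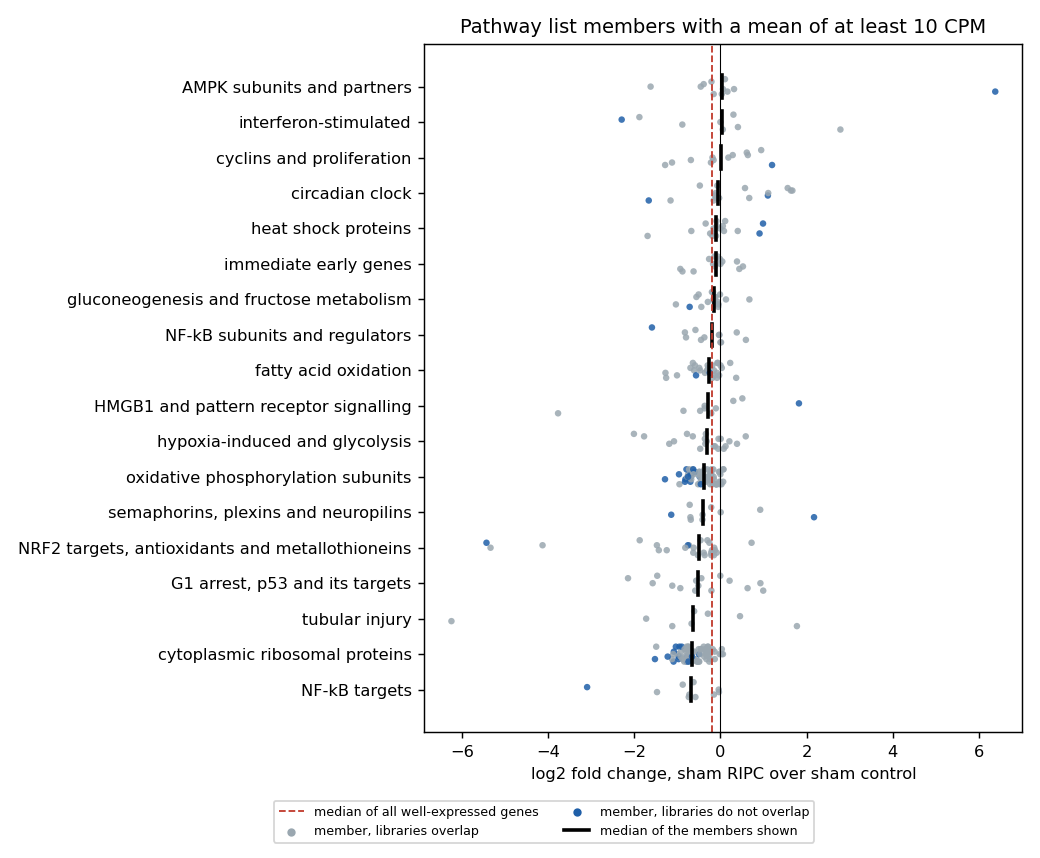
Log2 fold change (sham RIPC over sham control) of the members of 18 pathway lists with a mean of at least 10 CPM; each point is 1 gene, blue where the libraries of the groups do not overlap, the black bar is the median of the points shown and the red dashed line the median of all well-expressed genes (-0.19). Most lists centre near the dashed line, and the blue points of the ribosomal and oxidative phosphorylation lists all lie to the left of 0.

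Markers of glomerular and vascular cells were higher in every RIPC library, at low levels. Summed over 8 podocyte genes, the controls held 27.2, 8.00 and 39.2 CPM and the RIPC libraries 135, 77.2 and 225 CPM, a ratio of 5.88. Of these, Podxl and Synpo separated (2 of 8, beside 5.34% of all tested genes that were higher without overlap), at 0.0867, 7.75 and 12.1 against 33.0, 55.0 and 60.9 CPM and at 0.347, 0 and 6.25 against 44.9, 14.2 and 95.8 CPM. Summed over 12 endothelial genes, the values were 93.6, 7.25 and 108 against 186, 147 and 230 CPM, a ratio of 2.70. All 12 had a positive log2 fold change, and 4 (33.3%) separated: Ehd3, a glomerular endothelial gene (0.0434, 0 and 0.352 against 31.8, 6.66 and 17.1 CPM), Flt1, Cd34 and Tie1. Ehd3 had s values of 0.000297 and 7.62e-07.

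Without control 2 the endothelial ratio was 1.86 and the podocyte ratio 4.39. The fibroblast and mural list was at 8.02, 3.90 and 9.54 against 17.4, 9.89 and 16.6 CPM, with 7 of its 12 members under 1 CPM and 1 at 0 in all 6 libraries. Macrophage, neutrophil and lymphocyte sums overlapped, at 1.91 to 86.2 CPM in all, and the neutrophil genes S100a8 and S100a9 did not exceed 2.60 CPM in any library. The erythrocyte list was lower with RIPC, at 24.8, 839 and 95.7 against 14.6, 13.1 and 16.1 CPM, and 3 of its 6 tested members (50%, beside 7.85% of all tested genes) separated, all of them globins. Sums of markers from loop, distal tubule and collecting duct overlapped. In bulk libraries, fewer cells of a type and less RNA per cell cannot be told apart, and the part of other cell types in the single-gene differences was not tested.

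**Figure D5:**
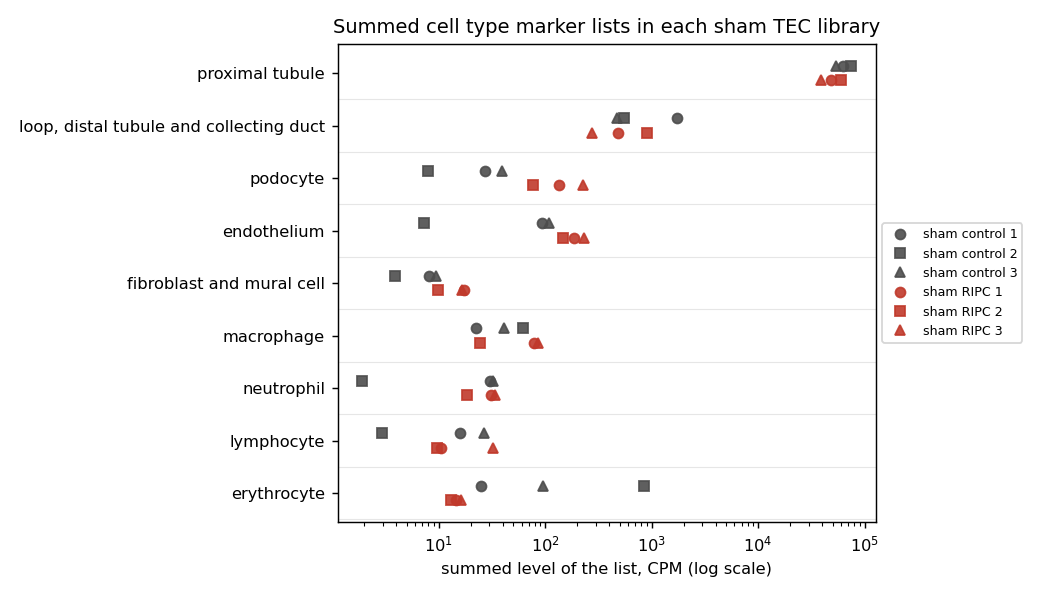
Summed level of 9 cell type marker lists in each library, in CPM on a log axis; each point is 1 library, grey for sham control and red for sham RIPC. Podocyte, endothelial and fibroblast sums are higher in all RIPC libraries, with control 2 the lowest point of each, and the erythrocyte sum is lower, with control 2 the highest at 839 CPM.

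For most well-expressed genes the data set wide limits on any change rather than none. The median half-width of the 95% interval was 1.34 on the log2 scale, a factor of 2.54 in either direction, and over all tested genes it was 4.71. The interval lay within 2-fold in both directions for 54 of 3108 well-expressed genes (1.74%). The narrowest were those of Gm29216, a gene model in a nuclear copy of mitochondrial sequence (-0.47 to 0.73), Ftl1, the light chain of ferritin (-0.74 to 0.48), Lars2, the mitochondrial leucyl-tRNA synthetase (-0.58 to 0.79), Fxyd2, a regulator of the sodium pump (-0.99 to 0.36), and Chchd2 (-0.91 to 0.45). Ftl1 was at 18880, 16460 and 10380 CPM in controls and 14790, 15800 and 11300 CPM with RIPC. Eno1, Aldoa, Hspa8, Rpl4, Cox4i1 and Uqcrc1 were also within 2-fold.

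The highest levels per length belonged in part to gene models of doubtful origin. Gm10800, Gm10718, Gm10721 and Gm10719 are satellite-like models that share sequence. Gm10800 was at 55070, 3.10 and 27180 CPM in controls and 31660, 21990 and 42200 CPM with RIPC. Gm10222 is a neighbour of Gm29216, and reads of mitochondrial RNA cannot be told apart from theirs. The iron storage gene Fth1 overlapped at 24630, 11420 and 6985 against 9835, 10450 and 7527 CPM. Gm37376 separated, at 3257, 1141 and 3593 against 4945, 4304 and 4024 CPM, but lies within the span of Malat1 on the opposite strand, so reads of the pair cannot be told apart without strand, and Malat1 itself overlapped at 6032, 1960 and 6653 against 8199, 7396 and 5749 CPM.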

How the data were processed

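The authors trimmed single-end reads with Trim Galore 0.6.4 and quantified transcripts with Salmon 1.0.0 against a mouse Gencode annotation, per the study's methods. The libraries were made from poly(A) RNA by template switching and PCR of full-length cDNA, without molecular identifiers, so counting error covers reads and not molecules. The deposited files give estimated counts (NumReads), TPM (a level per transcript length, scaled by the authors) and effective lengths, in 2 files per library. The estimated counts of both files were added, summed over the transcripts of a gene (139864 of 140748 transcripts matched Gencode M21, GRCm38) and rounded. Totals of the 2 files differed by 0.167% to 0.349%, and their counts agreed more closely than independent reads would (median squared difference over sum 0.0192 to 0.0712, against 0.455), so adding them does not double the depth.

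Sex-chromosome and mitochondrial genes were left out, as in the study. Counts of the 11 TEC libraries were filtered with filterByExpr, TMM-normalised and fitted in edgeR 4.0.16 (R 4.3.3) with 1 mean per group. The standard error was the log2 fold change divided by the square root of F. Genes with a mean of at least 50 CPM over the 6 sham libraries were called well expressed. DESeq2 1.42.0, apeglm 1.24.0 and limma 3.58.1 served as alternatives, and figures were drawn with matplotlib. On simulated counts (23804 genes, 3 against 3 of 11 libraries) the main test called 4.55% of 88 genes changed 8-fold and 40.2% of 92 genes changed 64-fold.

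The comparison, the gene lists and the rule for named genes were chosen with earlier results of these data known. The rule takes Sema5b and 11 pathway genes; for each direction the 10 non-overlapping genes of at least 10 CPM with the lowest p; the 10 autosomal genes highest in TPM; the 4 most abundant and all non-overlapping members of each list; and the 5 well-expressed genes with the narrowest interval. Other genes are marked in the text as seen first, or were looked up for a named gene or method (Prom1, Malat1, Gsta1 and Gsta2). The neutrophil files were not used here. Some genes that the rule names are not reported here.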

Additional observations from a re-analysis of the deposited data

How the results depend on the processing

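The count of 0 genes called by edgeR stayed at 0 with DESeq2 size factors, a stricter filter, either file alone, sex-chromosome and mitochondrial genes included, a length offset, the sham libraries alone, robust dispersions and each of the 6 libraries left out in turn. It was 54 with no filter on low counts, 1 with limma voom, 439 with DESeq2's Wald test, and 62 and 183 with apeglm in the 4 TEC groups and in the sham libraries alone. Called list members numbered 17 with the Wald test and 4 and 6 with the respective apeglm fits. The same tests called 1.69%, 0.239% and 0.706% of all tested genes, and the share of list members was not worked out. The 2035 non-overlapping genes became 847 where at least 10 counts were required in every sham library, which leaves fewer genes to test, and 3556 to 5065 with 1 library left out, where fewer libraries have to separate. The 54 well-expressed genes with an interval within 2-fold became 221 with that filter, 413 in the sham libraries alone, 154 with robust dispersions, 494 with limma voom, and 4 to 232 with 1 library left out, the 232 without control 2. The cause of these differences was not tested. Deviations of same-numbered libraries correlated at 0.045, 0.387 and 0.239. Control 2 correlated best with RIPC 2 and control 3 with RIPC 3, but control 1 correlated best with RIPC 3 (0.222). Whether libraries of the same replicate number were prepared together cannot be told from these values. With the replicate number as a block, 0 genes were called in all TEC libraries and in the sham libraries, and intervals within 2-fold numbered 15 and 227. The log2 fold change of Sema5b was 6.20 and 6.48 in these block fits. The median over all tested genes was 0.21, 0.18 with DESeq2 size factors, 0.07 without control 2, 0.60 without control 3 and 0.58 with limma voom. Whether depth limits the intervals was not tested.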

Other observations

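Several genes outside the named groups had no read in any control library and reads in all 3 RIPC libraries. They were chosen after their values were seen. The odorant receptor gene Olfr659 held 29.3, 3.03 and 4.46 CPM with RIPC, at least 111-fold above a floor of 3 reads per control library, and Gm43292, an unconfirmed gene model, held 23.7, 2.31 and 24.8 CPM. Among genes with few control reads, the endothelial adhesion receptor Adgra2 was at 0.174, 0 and 0 against 15.8, 17.0 and 10.2 CPM, the oestrogen receptor Esr1 at 1.04, 0.0554 and 0.0782 against 10.8, 7.22 and 11.1 CPM, and the checkpoint kinase Atm at 4.73, 5.62 and 3.17 against 19.8, 14.2 and 17.2 CPM. Each of these had an s value under 0.01 in at least 1 apeglm fit and an adjusted p of at least 0.708 in edgeR.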
